A study of Sus scrofa with 10 samples.

Results

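Chemokines and their receptors were followed in pig liver (Sus scrofa) by RNA sequencing, in a study of liver failure after hepatectomy (PHLF) and of a bioartificial liver (BAL), which treats the blood of the animal in a circuit outside it. The genes were those whose symbol in the deposited table was that of a CCL, CXCL, XCL or CX3CL chemokine, a CCR, CXCR, XCR or CX3CR receptor or an atypical receptor (ACKR), or AMCF-II. This gave 44 of 31905 genes, 25 ligands and 19 receptors. No symbol of the 44 occurred in more than 1 row.

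The 10 libraries came from wild-type (WT) pig liver. Control held 3 libraries of normal liver on day 0, and No-BAL held 2 of failing liver without a device on day 2. Empty-BAL, the control for the passage of blood, held 2 libraries of failing liver on day 3 with a device without cells. hiHep-BAL-Day4 held 1 library and hiHep-BAL-Day8 held 2 of failing liver treated with a device that carried human induced hepatocytes (hiHep), which are hepatocyte-like cells made from another human cell type. Every group was sampled on another day, so time and treatment cannot be told apart. The labels give no ages, do not say whether libraries of a group came from separate animals, and name hepatocytes as the cell type but describe RNA extraction from liver. p-values therefore measure the spread between libraries only, which may be technical.

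Chemokines are small secreted proteins that direct the migration of white blood cells, and are sorted by the spacing of their first cysteines into the CC, CXC, CX3C and XC classes. They act on G protein-coupled receptors, and the atypical receptors bind them without that signal, so that they are taken up or carried across cells. In liver they are made by hepatocytes, Kupffer cells, sinusoidal endothelium and stellate cells, and they draw neutrophils, monocytes and lymphocytes into injured tissue.

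Values are FPKM, in which fragments are divided by gene length and by the library total. They summed to between 439925 and 829970 per library, and depth in fragments is unknown. The Pearson correlation between libraries of a group, over the 12180 genes tested, was 0.992 to 0.994 in Control and 0.992 in hiHep-BAL-Day8, but 0.956 in No-BAL and 0.893 in Empty-BAL. Changes are differences in log2(FPKM + 1) with limma's standard error, called where p, adjusted by Benjamini-Hochberg over all genes tested, was under 0.05. This scale understates changes of low genes. Of the 44 members, 33 reached 1 FPKM in at least 2 libraries and were tested, 20 ligands and 13 receptors. CCL17, CCL26, XCL1 and XCR1 reached 1 FPKM in 1 group only, so that passing the filter already set them apart in that group. Of the calls counted below, 12 compare such a member in that group with another group, and no comparison holds more than 3 of them. CCR2 would not have passed without Empty-BAL, CXCR6 without hiHep-BAL-Day8 or CXCL11 without Control, and CCR7 without either Control or Empty-BAL. Their calls in those groups carry the same limit and are not among the 12. The closeness of the Control and of the hiHep-BAL-Day8 libraries carries much of the precision. With each of these groups counted as 1 library, 5 of the 112 member changes called remained called: those of ACKR1 in No-BAL and in Empty-BAL against Control, of CCL14 and CCL4 in Empty-BAL against Control, and of CCL26 in hiHep-BAL-Day8 against No-BAL, which is 1 of these 12. All 8 hepatocyte markers were found, and their summed FPKM was 78042 to 80372 in Control, 22892 and 14672 in No-BAL, 3754 and 7433 in Empty-BAL, 38537 in hiHep-BAL-Day4, and 23798 and 23723 in hiHep-BAL-Day8. Most of the Control sum came from ALB, at 52275 to 55098 FPKM. Against Control 4 of the 8 were called lower in No-BAL, 8 in Empty-BAL and 2, ALB and TTR, in hiHep-BAL-Day8, and 0 higher. Over all genes tested 24.2%, 29.3% and 17.1% were lower in these comparisons. CPS1, not called on day 8, was at 284 to 311 FPKM in Control, 1.6 and 105 in Empty-BAL, and 564 and 560 in hiHep-BAL-Day8.

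Normal liver carried more chemokine ligand RNA than any failing liver, and most of it came from CCL4 and CCL16. The ligands summed to 3127, 3308 and 3208 FPKM in Control, 544 and 161 in No-BAL, 991 and 689 in Empty-BAL, 650 in hiHep-BAL-Day4, and 702 and 720 in hiHep-BAL-Day8. The 3 Control libraries lay above all others. CCL4 and CCL16 together made up 75.9% to 76.7% of the ligand sum in Control, 50.6% and 38.6% in No-BAL, 16.3% and 7.9% in Empty-BAL, 61.2% in hiHep-BAL-Day4, and 50.4% and 51.1% in hiHep-BAL-Day8. CCL5, CCL14, CCL19 and CCL21, a set put together after the values were seen, held 2.3% to 2.7% in Control, 17.4% and 14.8% in No-BAL, 38.8% and 54.8% in Empty-BAL, 7.9% in hiHep-BAL-Day4, and 27.6% and 27.2% in hiHep-BAL-Day8. On day 8 CCL21 alone held 22.9% and 23.1%. Receptor RNA was scarcer and summed to 36.6 to 39.9 FPKM in Control, 49.9 and 37.0 in No-BAL, 118.9 and 63.7 in Empty-BAL, 37.2 in hiHep-BAL-Day4, and 29.9 and 28.8 in hiHep-BAL-Day8. In tissue RNA, fewer cells of a type and less RNA per cell cannot be told apart.

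**Figure D1:**
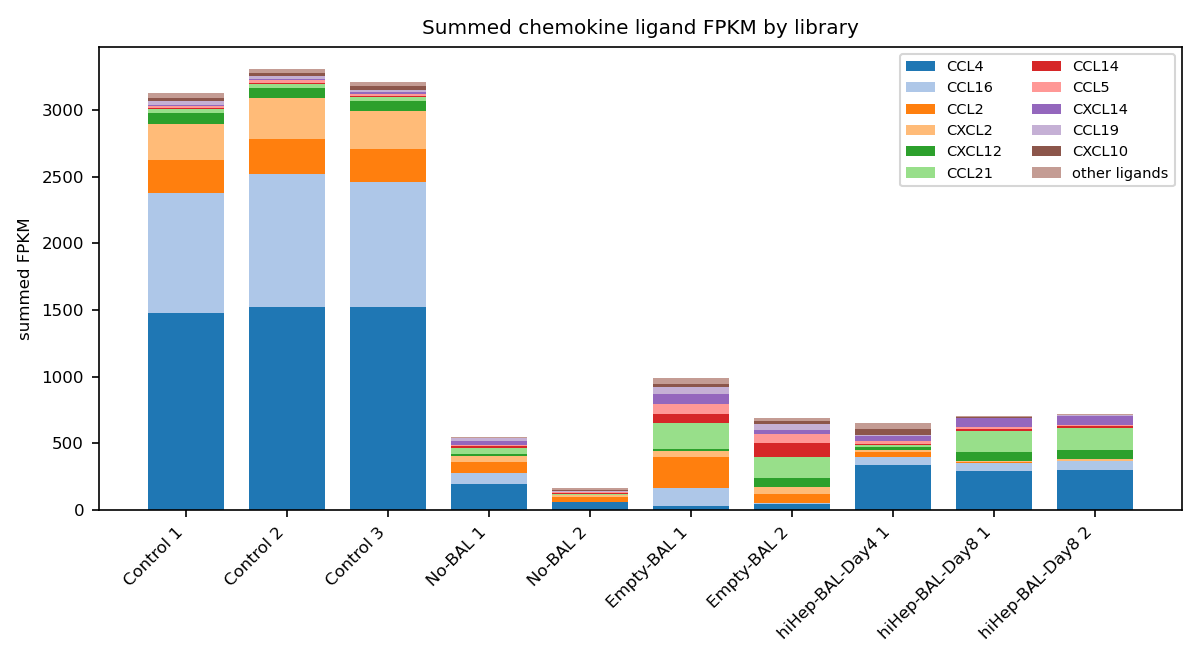
Summed FPKM of the 25 chemokine ligands in each of the 10 libraries, with the 11 ligands of highest level as coloured segments and the rest pooled. The Control bars reach 3127 to 3308 FPKM and are mostly CCL4 and CCL16, while no bar of a failing liver exceeds 991 FPKM.

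The inflammatory CC ligands CCL4, CCL16, CCL2 and CCL3L1 were at their highest in normal liver and fell in failing liver without a device. CCL4 (MIP-1 beta), an attractant of monocytes and T cells, was at 1476, 1519 and 1524 FPKM in Control, 195 and 55 in No-BAL, 30.4 and 42.4 in Empty-BAL, 334 in hiHep-BAL-Day4, and 293 and 302 in hiHep-BAL-Day8. No library of failing liver came near the Control level, and the Empty-BAL libraries were the lowest. The log2 change of CCL4 against Control was -3.85 ± 0.47 in No-BAL (limma adjusted p = 0.00044) and -5.35 ± 0.47 in Empty-BAL (adjusted p = 9e-05). In hiHep-BAL-Day8 it stood 3.01 ± 0.51 above Empty-BAL (limma adjusted p = 0.0031) and 1.51 ± 0.51 above No-BAL (adjusted p = 0.042), and its change against Control was -2.34 ± 0.47 (adjusted p = 0.0073). The call against Control was lost without either hiHep-BAL-Day8 library, and that against No-BAL without any 1 of the Control or hiHep-BAL-Day8 libraries or without No-BAL replicate 2 (adjusted p up to 0.34 over the alternatives). CCL3L1, which encodes a protein like CCL3 and lies beside CCL4 on chromosome 12 (39491999 to 39493345, against 39479190 to 39480511 for CCL4, Sscrofa11.1), was at 19.9, 13.3 and 17.8 FPKM in Control, 0.526 and 2.68 in No-BAL, 12 and 6.46 in Empty-BAL, 0.382 in hiHep-BAL-Day4, and 0.3 and 1.51 in hiHep-BAL-Day8. Its order across the groups was not that of CCL4, since Empty-BAL stood above the other failing livers. CCL3L1 fell by 2.91 ± 0.45 in No-BAL against Control (limma adjusted p = 0.0013) and was 2.05 ± 0.49 higher in Empty-BAL than in No-BAL (adjusted p = 0.018), a call lost without No-BAL replicate 1 or Empty-BAL replicate 1. Genes of the CCL3 and CCL4 families have close copies, so the split of fragments between them is uncertain.

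CCL16 and CCL14 are neighbouring CC ligand genes on chromosome 12 (39618187 to 39621557 and 39611887 to 39616050) and moved in opposite directions. CCL16, a chemokine made mainly by hepatocytes, was at 899, 997 and 937 FPKM in Control, 80.3 and 7.27 in No-BAL, 131 and 12 in Empty-BAL, 64.4 in hiHep-BAL-Day4, and 61.4 and 65.8 in hiHep-BAL-Day8. The libraries of No-BAL and of Empty-BAL lay far apart, yet all were below Control. Against Control, CCL16 changed by -5.19 ± 1.1 in No-BAL, -4.51 ± 1.1 in Empty-BAL and -3.87 ± 1.1 in hiHep-BAL-Day8 (limma adjusted p = 0.006, 0.01 and 0.031). The call in hiHep-BAL-Day8 was lost without any 1 Control or hiHep-BAL-Day8 library and that in Empty-BAL without its replicate 2 (adjusted p up to 0.61 and 0.19 over the alternatives). CCL14, which is found in plasma and acts on CCR1, was at 4.88, 3.95 and 4.78 FPKM in Control, 18.7 and 8.11 in No-BAL, 64.7 and 107 in Empty-BAL, 10.7 in hiHep-BAL-Day4, and 17.7 and 14.7 in hiHep-BAL-Day8. Every failing liver was above Control, and Empty-BAL did not overlap any other group. CCL14 was 3.93 ± 0.34 higher in Empty-BAL than in Control (limma adjusted p = 9e-05), 2.66 ± 0.38 higher than in No-BAL (adjusted p = 0.0041), and lower in hiHep-BAL-Day8 than in Empty-BAL (-2.30 ± 0.38, adjusted p = 0.0027).

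CCL2 (MCP-1), which draws monocytes through CCR2, was lowest on day 8. It was at 250, 269 and 245 FPKM in Control, 84.1 and 35.7 in No-BAL, 238 and 63.9 in Empty-BAL, 33.8 in hiHep-BAL-Day4, and 1.71 and 1.73 in hiHep-BAL-Day8. Both day 8 libraries were below every other library. The log2 change of hiHep-BAL-Day8 was -6.55 ± 0.54 against Control, -4.36 ± 0.59 against No-BAL and -5.52 ± 0.59 against Empty-BAL (limma adjusted p = 0.00014, 0.00088 and 0.00047). CCL2 also fell in No-BAL against Control (-2.19 ± 0.54, limma adjusted p = 0.012), though not without No-BAL replicate 2 (adjusted p up to 0.25 over the alternatives). Empty-BAL did not pass the test against Control (-1.04 ± 0.54, limma adjusted p = 0.14), and 1 of its libraries was close to the Control level.

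CCL5 (RANTES), a product of T cells and macrophages that acts on CCR1, stood highest in the livers with the empty device. It was at 18.4, 21.8 and 21.3 FPKM in Control, 8.46 and 4.28 in No-BAL, 74.7 and 67.2 in Empty-BAL, 18.2 in hiHep-BAL-Day4, and 9.68 and 10.7 in hiHep-BAL-Day8. No library of another group exceeded 21.8 FPKM. CCL5 fell in No-BAL (-1.60 ± 0.25, limma adjusted p = 0.0013) and rose in Empty-BAL (1.74 ± 0.25, adjusted p = 0.0008) against Control. The difference between Empty-BAL and No-BAL was 3.35 ± 0.27 (limma adjusted p = 0.00096) and that between hiHep-BAL-Day8 and Empty-BAL was -2.68 ± 0.27 (adjusted p = 0.00036).

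The remaining inflammatory CC ligands were low, apart from CCL11 in 1 library. CCL8, a further monocyte attractant, was at 0.844, 1.32 and 1.66 FPKM in Control, 0 and 0.395 in No-BAL, 1.36 and 3.39 in Empty-BAL, 0.351 in hiHep-BAL-Day4, and 0.331 and 0.502 in hiHep-BAL-Day8. It was 1.45 ± 0.32 higher in Empty-BAL than in No-BAL (limma adjusted p = 0.014), a call lost without No-BAL replicate 1. CCL17, a ligand of CCR4, was listed at 0 in both libraries of No-BAL and of hiHep-BAL-Day8 and in hiHep-BAL-Day4, at 4.65 and 1.71 FPKM in Empty-BAL, and at 0.289, 0 and 0.331 in Control. CCL26, an eosinophil attractant, was at 3.51 and 1.58 FPKM in hiHep-BAL-Day8, 0.319 and 0.973 in Empty-BAL and 0, 0.389 and 0 in Control, and was listed at 0 in both No-BAL libraries and in hiHep-BAL-Day4. CCL11 (eotaxin), which also attracts eosinophils, reached 36.3 FPKM in hiHep-BAL-Day4, where it was the fifth most abundant ligand. Elsewhere CCL11 was at 0.205, 0.0754 and 0.788 FPKM in Control, 0.993 and 5.54 in No-BAL, 2.00 and 3.28 in Empty-BAL, and 0.9 and 0.287 in hiHep-BAL-Day8. Its rises in No-BAL and Empty-BAL against Control (1.45 ± 0.48 and 1.44 ± 0.48, limma adjusted p = 0.038 and 0.037) were lost without either of Control replicates 1 and 2 or hiHep-BAL-Day8 replicates 1 and 2, that of No-BAL also without its replicate 2 and that of Empty-BAL without either of its own.

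**Figure D2:**
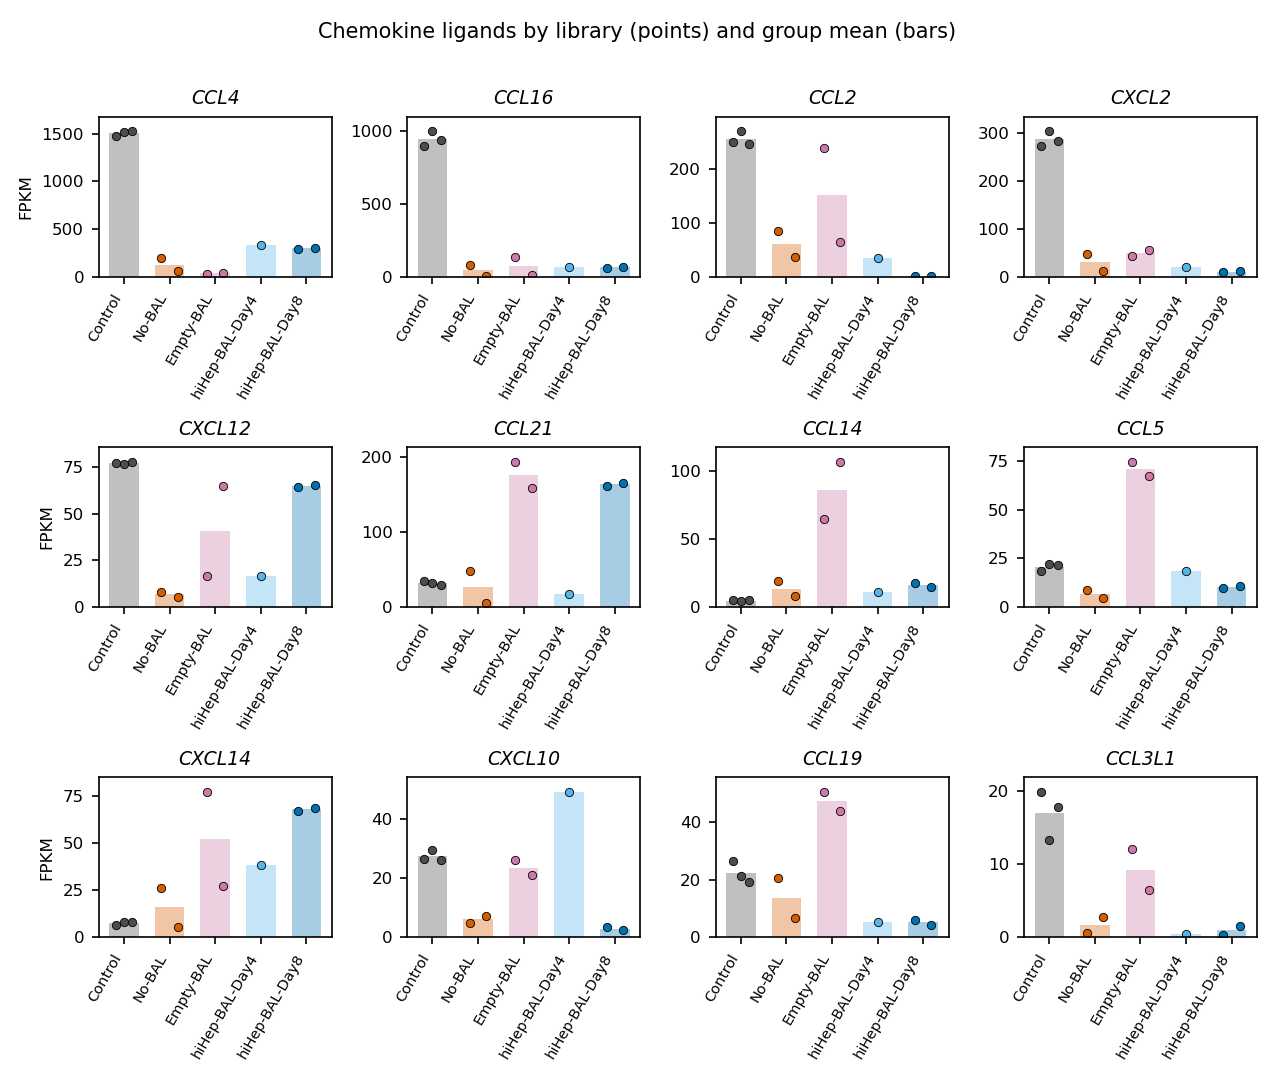
FPKM of 12 chemokine ligands, with points for libraries and bars for group means, on linear axes from 0 that differ between genes. CCL4, CCL16, CCL2 and CXCL2 are highest in Control, CCL5 and CCL14 in Empty-BAL, and CCL2 is at 1.71 and 1.73 FPKM in the 2 hiHep-BAL-Day8 libraries.

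CCL19 and CCL21, which guide dendritic cells and lymphocytes through their shared receptor CCR7, parted on day 8. The genes lie on chromosome 10, at 32110366 to 32112529 and 32093783 to 32094482. CCL21 was at 34.6, 32.3 and 29.4 FPKM in Control, 47.3 and 4.95 in No-BAL, 194 and 159 in Empty-BAL, 17.5 in hiHep-BAL-Day4, and 161 and 166 in hiHep-BAL-Day8. CCL19 was at 26.4, 21.1 and 19.0 FPKM in Control, 20.5 and 6.47 in No-BAL, 50.6 and 44.0 in Empty-BAL, 5.07 in hiHep-BAL-Day4, and 5.87 and 4.24 in hiHep-BAL-Day8. Both were high in Empty-BAL, and on day 8 CCL21 was at that level while CCL19 was below Control. CCL21 was higher in Empty-BAL and in hiHep-BAL-Day8 than in No-BAL (3.38 ± 0.79 and 3.28 ± 0.79, limma adjusted p = 0.017 and 0.011) and than in Control (2.42 ± 0.72 and 2.32 ± 0.72, adjusted p = 0.023 and 0.043). The calls against Control were lost without any 1 Control library or without either library of the higher group, and those against No-BAL without Empty-BAL replicate 1 or without either hiHep-BAL-Day8 library. CCL21 in hiHep-BAL-Day8 against Empty-BAL did not pass (-0.10 ± 0.79, limma adjusted p = 0.93). CCL19 was lower in hiHep-BAL-Day8 than in Empty-BAL (-3.01 ± 0.44, limma adjusted p = 0.0017) and than in Control (-1.94 ± 0.40, adjusted p = 0.0087), the latter not without hiHep-BAL-Day8 replicate 2. CCR7 itself was at 0.624 to 1.21 FPKM in Control, 0.254 and 0.122 in No-BAL, 1.60 and 0.955 in Empty-BAL, 0.506 in hiHep-BAL-Day4, and 0.32 and 0.145 in hiHep-BAL-Day8. ACKR4, the atypical receptor that takes up CCL19 and CCL21, lay between 0.447 and 1.39 FPKM and was called in none of the 6 comparisons.

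Of the CXC ligands that attract neutrophils, CXCL2 was abundant in normal liver, CXCL8 was low and AMCF-II was under 1 FPKM in every library. CXCL2 was at 272, 303 and 284 FPKM in Control, 48.1 and 11.3 in No-BAL, 43.8 and 54.6 in Empty-BAL, 20.3 in hiHep-BAL-Day4, and 9.68 and 10.9 in hiHep-BAL-Day8. All failing livers were below Control, and the day 8 libraries were the lowest. Against Control, CXCL2 changed by -3.55 ± 0.49 in No-BAL, -2.52 ± 0.49 in Empty-BAL and -4.67 ± 0.49 in hiHep-BAL-Day8 (limma adjusted p = 0.00082, 0.0037 and 0.00041). CXCL8 (interleukin 8) was at 6.03, 5.51 and 4.16 FPKM in Control, 0.689 and 1.32 in No-BAL, 10.7 and 3.37 in Empty-BAL, 0.601 in hiHep-BAL-Day4, and 0.83 and 0.847 in hiHep-BAL-Day8. The Empty-BAL libraries spanned the Control range, and the other failing livers were below it. CXCL8 was lower in hiHep-BAL-Day8 than in Empty-BAL (-1.96 ± 0.42, limma adjusted p = 0.0082). Of 10 neutrophil markers 8 were found, and they summed to 1.61 to 3.18 FPKM in Control, 240 and 30.2 in No-BAL, 643 and 112 in Empty-BAL, 68.3 in hiHep-BAL-Day4, and 3.05 and 3.16 in hiHep-BAL-Day8. S100A8, ELANE and MMP8 were at 0 in all Control libraries, and LTF and MMP8 in both of hiHep-BAL-Day8. Most of the sum in No-BAL and Empty-BAL came from S100A12 and S100A8, at 443 and 175 FPKM in Empty-BAL replicate 1. Of the 5 markers tested, 4 were higher in No-BAL and 5 in Empty-BAL than in Control, while MPO, ELANE and MMP8 stayed under 1 FPKM throughout. Over all genes 25.2% and 24.4% were higher in these comparisons. S100A8, S100A12, CSF3R and LTF were under 1 FPKM in every Control and hiHep-BAL-Day8 library, so passing the filter already set these groups apart for them. CXCL2 was below Control where the sum was high, in No-BAL and Empty-BAL, and also on day 8, where the sum was near that of Control. The part of neutrophils in the level of CXCL2 was not tested.

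The interferon-inducible ligands of CXCR3 were low in No-BAL and in hiHep-BAL-Day8. CXCL10 was at 26.5, 29.4 and 26.1 FPKM in Control, 4.88 and 7.02 in No-BAL, 26.1 and 20.9 in Empty-BAL, 49.3 in hiHep-BAL-Day4, and 3.39 and 2.33 in hiHep-BAL-Day8. Empty-BAL was near Control, and the day 4 library was the highest of all. The log2 change of CXCL10 was -2.04 ± 0.21 in No-BAL and -2.89 ± 0.21 in hiHep-BAL-Day8 against Control (limma adjusted p = 0.00018 and 7.8e-05), and -2.67 ± 0.22 in hiHep-BAL-Day8 against Empty-BAL (adjusted p = 0.00019). CXCL9 was at 3.31, 2.83 and 3.61 FPKM in Control, 0 and 0.11 in No-BAL, 8.98 and 3.65 in Empty-BAL, 1.11 in hiHep-BAL-Day4, and 0.856 and 1 in hiHep-BAL-Day8. It was 2.69 ± 0.32 higher in Empty-BAL than in No-BAL (limma adjusted p = 0.0023). CXCL11 was at 1.84, 1.34 and 0.973 FPKM in Control, 0.105 and 0.0532 in No-BAL, 0.616 and 0.326 in Empty-BAL, 2.70 in hiHep-BAL-Day4, and 0.37 and 0.426 in hiHep-BAL-Day8. Like CXCL10, it was at its highest in the day 4 library. In RefSeq both CXCL10 and CXCL11 overlap the gene ART3, so reads of these genes may be shared. CXCR3 reached at most 0.769 FPKM in any library and was not tested.

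CXCL12 and CXCL14 were the CXC ligands that were abundant on day 8. CXCL12 (SDF-1), the stromal ligand of CXCR4, was at 77.5, 76.8 and 78.1 FPKM in Control, 8.06 and 5.39 in No-BAL, 16.7 and 64.8 in Empty-BAL, 16.3 in hiHep-BAL-Day4, and 64.4 and 65.3 in hiHep-BAL-Day8. The No-BAL libraries were the lowest, and the Empty-BAL libraries were split between a low and a high one. CXCL12 fell in No-BAL against Control (-3.37 ± 0.47, limma adjusted p = 0.00088) and was higher in hiHep-BAL-Day8 than in No-BAL (3.11 ± 0.52, adjusted p = 0.0022). Against Control, hiHep-BAL-Day8 did not pass (-0.25 ± 0.47, limma adjusted p = 0.72). CXCL14, made by epithelial and stromal cells, was at 6.34, 7.81 and 8.01 FPKM in Control, 26.1 and 5.36 in No-BAL, 77.4 and 27.2 in Empty-BAL, 38.4 in hiHep-BAL-Day4, and 67.2 and 69.0 in hiHep-BAL-Day8. CXCL14 was 3.05 ± 0.61 higher in hiHep-BAL-Day8 than in Control (limma adjusted p = 0.0075) and 2.39 ± 0.67 higher than in No-BAL (adjusted p = 0.021). Both calls were lost without either hiHep-BAL-Day8 library, and the latter also without No-BAL replicate 2. Of stellate cell and fibroblast markers 9 of 9 were found, none of them at 0 in all libraries of a group, and they summed to 324 to 358 FPKM in Control, 907 and 627 in No-BAL, 810 and 565 in Empty-BAL, 153 in hiHep-BAL-Day4, and 608 and 613 in hiHep-BAL-Day8. The part of these cells in the levels of CXCL12 and CXCL14 was not tested.

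XCL1, a ligand made by T and NK cells, and its receptor XCR1, carried by cross-presenting dendritic cells, were scarce, at no more than 2.28 FPKM in any library. XCL1 was at 1.12, 0.951 and 1.30 FPKM in Control and at 0 to 0.397 in the other libraries. XCR1 was at 0.665, 0.901 and 0.602 FPKM in Control, 0.202 and 0.13 in No-BAL, 2.28 and 1.30 in Empty-BAL, 0.0762 in hiHep-BAL-Day4, and 0.181 and 0.321 in hiHep-BAL-Day8. XCL1 was thus highest in normal liver and XCR1 in Empty-BAL. Since these were also the groups through which each passed the filter, their differences from the other groups are given as levels, without a test. XCR1 and CCR1 overlap in RefSeq, so part of their reads cannot be told apart.

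Most of the signalling receptors tested had their highest group mean in Empty-BAL, while CX3CR1 and CCR10 had theirs in Control. CXCR4, the receptor of CXCL12 on most white blood cells, was at 6.52, 6.33 and 5.09 FPKM in Control, 3.79 and 3.45 in No-BAL, 12.7 and 11.3 in Empty-BAL, 2.52 in hiHep-BAL-Day4, and 8.05 and 8.01 in hiHep-BAL-Day8. The groups with more than 1 library did not overlap, with No-BAL lowest, then Control, hiHep-BAL-Day8 and Empty-BAL. CXCR4 was 1.49 ± 0.16 higher in Empty-BAL than in No-BAL (limma adjusted p = 0.002) and 0.97 ± 0.16 higher in hiHep-BAL-Day8 than in No-BAL (adjusted p = 0.0024), while the step from Control to hiHep-BAL-Day8 did not pass (0.38 ± 0.15, adjusted p = 0.092).

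The gene given as CCR2 in the deposited table carries an identifier (ENSSSCG00000024311) that the reference list names CCR3, so it may be either, and both have close relatives beside them. It was at 0.176, 0.388 and 0.25 FPKM in Control, 0.747 and 0.3 in No-BAL, 2.66 and 1.78 in Empty-BAL, 0.476 in hiHep-BAL-Day4, and 1 and 0.663 in hiHep-BAL-Day8. It was highest in Empty-BAL, without which it would not have passed the filter, so its differences are given as levels, without a test. CCR1, a receptor of monocytes and neutrophils, was at 1.02, 1.12 and 1.12 FPKM in Control, 0.931 and 3.10 in No-BAL, 7.19 and 1.83 in Empty-BAL, 1.24 in hiHep-BAL-Day4, and 0.607 and 0.773 in hiHep-BAL-Day8. Its 1 call, hiHep-BAL-Day8 against Empty-BAL (-1.51 ± 0.49, limma adjusted p = 0.042), was lost without any 1 Control library, Empty-BAL replicate 1 or either hiHep-BAL-Day8 library. CX3CR1, the receptor of patrolling monocytes and some lymphocytes, was at 1.52, 1.07 and 1.65 FPKM in Control, 0.0443 and 0.176 in No-BAL, 0.77 and 1.98 in Empty-BAL, 0.268 in hiHep-BAL-Day4, and 1.17 and 1.32 in hiHep-BAL-Day8. CXCR6, carried by liver-resident T and NK cells, was at 0.688, 0.617 and 0.744 FPKM in Control, 0.0969 and 0 in No-BAL, 0.706 and 2.1 in Empty-BAL, 0.444 in hiHep-BAL-Day4, and 1.19 and 1.23 in hiHep-BAL-Day8. Both were lowest in No-BAL. CX3CR1 was higher in hiHep-BAL-Day8 than in No-BAL (1.02 ± 0.25, limma adjusted p = 0.011), though not without No-BAL replicate 1 or either hiHep-BAL-Day8 library. CXCR6 would not have passed the filter without hiHep-BAL-Day8, so this difference is given for it as levels, without a test. CCR10, a receptor for skin and mucosal homing, was at 1.42, 0.796 and 1.42 FPKM in Control, 1.23 and 1.16 in Empty-BAL, and at most 0.647 in the other libraries.

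The atypical receptors ACKR1 and ACKR2 changed in opposite directions. ACKR1 (the Duffy antigen receptor), which venous endothelium and red cells carry and which binds both CC and CXC ligands, was at 0, 0.861 and 0.207 FPKM in Control, 13.6 and 9.55 in No-BAL, 41.0 and 24.9 in Empty-BAL, 6.49 in hiHep-BAL-Day4, and 4.18 and 3.26 in hiHep-BAL-Day8. Every failing liver was above every Control library, and no 2 of the groups overlapped. ACKR1 rose against Control by 3.24 ± 0.32 in No-BAL, 4.65 ± 0.32 in Empty-BAL and 1.84 ± 0.32 in hiHep-BAL-Day8 (limma adjusted p = 0.00017, 3.1e-05 and 0.0039). It was lower in hiHep-BAL-Day8 than in Empty-BAL (-2.81 ± 0.35, limma adjusted p = 0.00087) and than in No-BAL (-1.40 ± 0.35, adjusted p = 0.013), the latter not without No-BAL replicate 1 or hiHep-BAL-Day8 replicate 2. Of 10 endothelial markers 9 were found, none at 0 in all libraries of a group, and they summed to 488 to 533 FPKM in Control, 106 and 152 in No-BAL, 343 and 377 in Empty-BAL, 251 in hiHep-BAL-Day4, and 201 and 203 in hiHep-BAL-Day8. Most of the Control sum came from CLEC4G and FCN2, at 203 to 233 and 211 to 224 FPKM. Single markers moved in both directions: in Empty-BAL against Control VWF and KDR rose and CLEC4G fell, in No-BAL KDR rose and STAB1, FCN2 and CLEC4G fell, and in hiHep-BAL-Day8 VWF and CDH5 rose and FCN2 and CLEC4G fell. The part of endothelial cells or red cells in the level of ACKR1 was not tested. ACKR2, a scavenger of inflammatory CC ligands, was at 4.88, 4.35 and 5.14 FPKM in Control, 1.30 and 0.689 in No-BAL, 0.967 and 1.36 in Empty-BAL, 3.74 in hiHep-BAL-Day4, and 1.26 and 1.22 in hiHep-BAL-Day8. It fell in No-BAL, Empty-BAL and hiHep-BAL-Day8 (-1.55 ± 0.17, -1.42 ± 0.17 and -1.37 ± 0.17, limma adjusted p = 0.00027, 0.00036 and 0.00086), and these groups did not pass a test against each other. ACKR3, which takes up CXCL12, was at 15.8, 19.6 and 17.3 FPKM in Control, 26.6 and 17.5 in No-BAL, 40 and 10.1 in Empty-BAL, 18.6 in hiHep-BAL-Day4, and 8.34 and 8.64 in hiHep-BAL-Day8, and was called in no comparison.

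**Figure D3:**
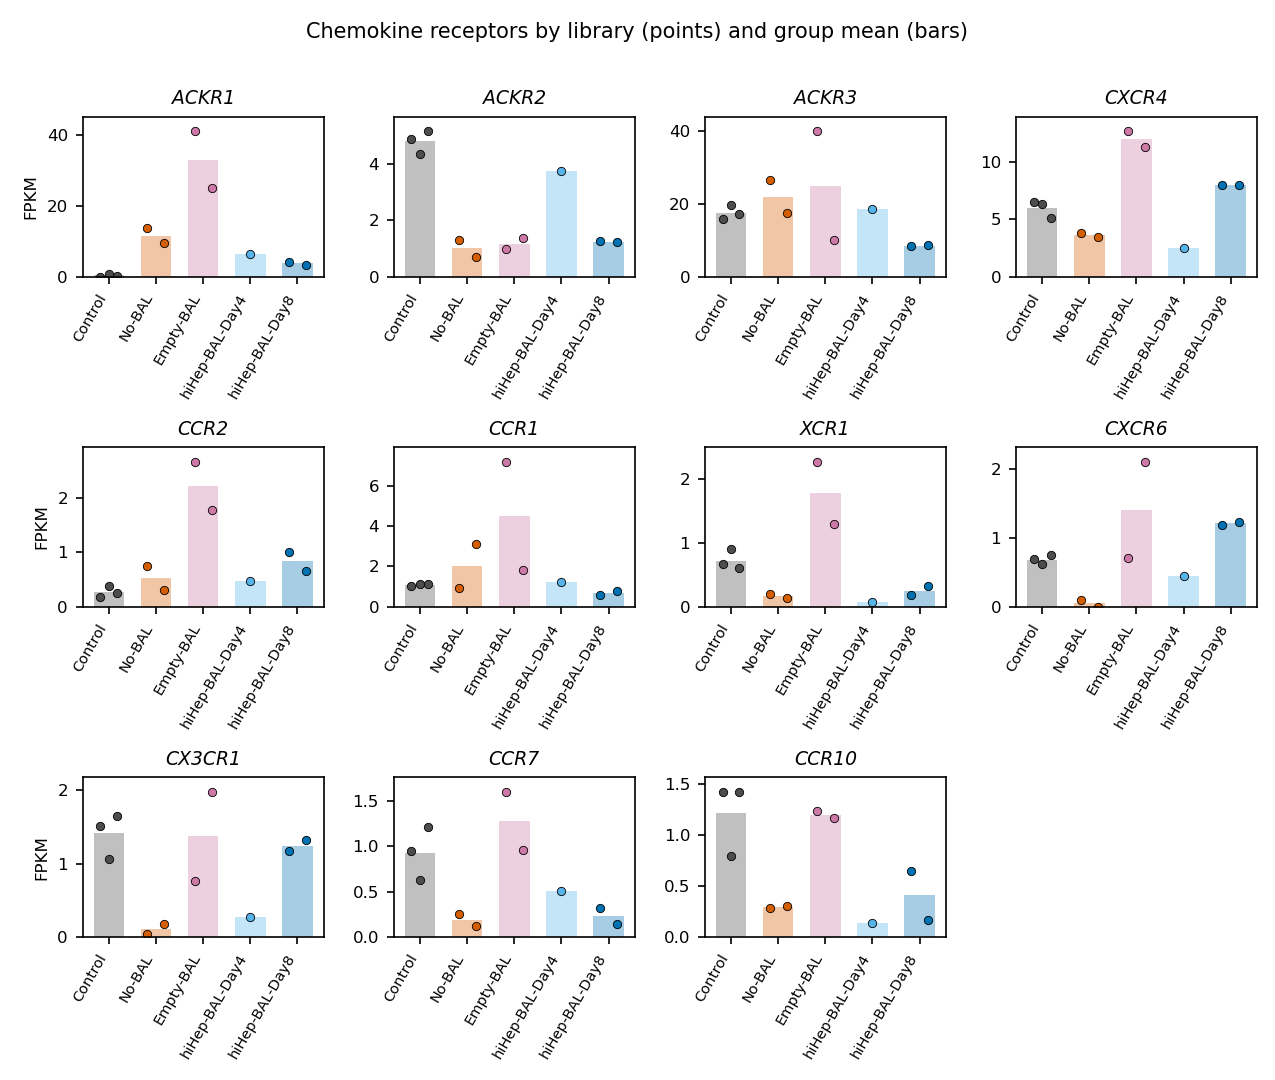
FPKM of 11 chemokine receptors, with points for libraries and bars for group means, on linear axes from 0 that differ between genes. ACKR1 is at 24.9 and 41.0 FPKM in Empty-BAL and under 1 FPKM in Control, and CXCR4, CCR2, CCR1 and XCR1 have their highest group mean in Empty-BAL.

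The members called in each comparison are set beside all 12180 genes tested. No-BAL against Control asked which genes accompany the liver failure, and chemokine genes mostly fell. Of 33 members tested 20 fell and 3 rose, at a median log2 change of -0.86 against 0.04 over all genes, of which 24.2% fell and 25.2% rose (49.4% in all). The falls include that of XCL1, which reached 1 FPKM in Control only, and without it 19 fell. The 19 still hold CXCL11 and CCR7, which needed Control to pass the filter. Both neutrophil attractants tested, CXCL2 and CXCL8, all 3 interferon-inducible ligands and 6 of 10 inflammatory CC ligands fell, as did CXCR4, CXCR6, CX3CR1 and XCR1. ACKR1, CCL11 and CCL14 rose, with 1 of the rises left without Control replicate 2. The fall of CXCR6 was lost in 13 of 17 alternatives, including without any 1 Control, No-BAL or hiHep-BAL-Day8 library, that of XCR1 without Control replicate 1 or 2 or either No-BAL library, that of CXCR4 without Control replicate 1 or 2, and that of CXCL8 without No-BAL replicate 1. Of 13 T and NK cell markers 12 were found, and they summed to 30.3 to 32.0 FPKM in Control and 9.14 and 10.1 in No-BAL, with 8 of the 9 tested lower. Of 12 macrophage and Kupffer cell markers 11 were found, and they summed to 436 to 466 and 125 and 125 FPKM, with 6 of 11 lower. No found marker of either list was at 0 in both No-BAL or all Control libraries (KLRB1, a T and NK cell marker, was at 0 in hiHep-BAL-Day4), and their part in the falls was not tested.

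Empty-BAL against No-BAL set 2 groups of failing liver against each other, and every call among the chemokine genes was upward. Of the 33 members 20 were higher and 0 lower by limma, with 21 higher and 1, CCL4, lower at an unadjusted p under 0.05. The median log2 change was 1.16 against -0.14 over all genes, of which 12.6% were higher and 21.4% lower (34.0% in all). The higher members included CCL5, CCL14, CCL19, CCL21, CXCL9, CXCL10 and CXCL12 among the ligands, and CCR2, CCR7, CCR10 and CXCR4 among the receptors. They also held CCL17 and XCR1, which reached 1 FPKM in Empty-BAL only, and without these 18 were higher. The 18 still hold CCR2 and CCR7, which needed Empty-BAL to pass the filter. The macrophage markers summed to 779 and 1093 FPKM in Empty-BAL with 11 of 11 higher than in No-BAL, the T and NK cell markers to 88.9 and 60.4 FPKM with 9 of 9 higher, and their part was not tested. Leaving out Empty-BAL replicate 1 or No-BAL replicate 2 gave 1 lower member in place of 0. The rise of CCR10 was lost without either No-BAL library or Empty-BAL replicate 1, those of CCR7 and CXCL12 without No-BAL replicate 2, and those of CCL19 and CCL21 without Empty-BAL replicate 1. With Control and hiHep-BAL-Day8 each counted as 1 library, no gene of the 12180 passed, and 21 members were higher at an unadjusted p under 0.05.

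Empty-BAL against Control gave 11 higher and 6 lower members, at a median of 0.45 against -0.03 over all genes, of which 24.4% were higher and 29.3% lower (53.7% in all). CCL4, CCL16, CXCL2, CXCL11 and ACKR2 fell, and CCL5, CCL11, CCL14, CCL21, CXCL14, CCR2, CXCR4 and ACKR1 were among those that rose. The counts also hold CCL17 and XCR1, which reached 1 FPKM in Empty-BAL only, and XCL1, which did so in Control only. Without these members 9 were higher and 5 lower. The 9 still hold CCR2, which needed Empty-BAL to pass the filter, and the 5 hold CXCL11, which needed Control. The 17 members called in either direction were a share close to that over all genes. The rise of CXCL14 was lost without Empty-BAL replicate 1. Among the markers 6 of 11 of macrophages rose and 1 fell, and 4 of 9 of T and NK cells rose and 1 fell.

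hiHep-BAL-Day8 against Control gave 5 higher and 15 lower members, at a median of -0.64 against -0.02 over all genes, of which 15.1% were higher and 17.1% lower (32.2% in all). CCL21, CXCL14, CCL14 and ACKR1 were higher, and the lower members included CCL2, CXCL2, CCL3L1, CXCL10, CCL16 and CCL4. The counts also hold CCL26 and XCL1, which reached 1 FPKM only in hiHep-BAL-Day8 and only in Control. Without these members 4 were higher and 14 lower. The 14 still hold CXCL11 and CCR7, which needed Control to pass the filter. The level of CCL21, CXCL14 and ACKR1 was thus above normal on day 8, when that of CCL2 was 1.72 against 255 FPKM. The number higher was 2 without either hiHep-BAL-Day8 library and 8 without either Empty-BAL library, and the number lower was 8 and 6 without hiHep-BAL-Day8 replicates 1 and 2.

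hiHep-BAL-Day8 against No-BAL asked which genes of the failing liver differed after treatment with the cell-filled device. Of 33 members 8 were higher and 3 lower, at a median of 0.18 against -0.03 over all genes, of which 22.5% were higher and 24.8% lower (47.3% in all). The share of members higher was close to that over all genes, and the share lower was smaller. CXCL12, CCL21, CXCL14, CCL4, CXCR4, CXCR6 and CX3CR1 were higher, and CCL2, CXCL10 and ACKR1 lower. The counts also hold CCL26, which reached 1 FPKM in hiHep-BAL-Day8 only, and without it 7 were higher and 3 lower. The 7 still hold CXCR6, which needed hiHep-BAL-Day8 to pass the filter. With upper-quartile scaling the counts were 11 and 2, without CXCL10. Without hiHep-BAL-Day8 replicates 1 and 2 the number higher was 4 and 3, and without replicate 2 a single member was lower. Of the markers, 7 of 11 of macrophages were higher and 1, MARCO, lower (393 and 395 FPKM in sum). Of those of T and NK cells 5 of 9 were higher (22.4 and 22.6 FPKM in sum), and of those of neutrophils 4 of 5 were lower. These 4 neutrophil markers were under 1 FPKM in both hiHep-BAL-Day8 libraries, so passing the filter already set that group apart.

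hiHep-BAL-Day8 against Empty-BAL set the device with cells beside that without them, and chemokine genes were mostly lower. Of 33 members 19 were lower and 2 higher, at a median of -1.03 against 0.05 over all genes, of which 17.6% were lower and 22.6% higher (40.2% in all). CCR1, CCR2, CCR7, CCR10, CXCR4 and ACKR1 were lower, with CCL2, CCL5, CCL14, CCL19, CXCL2, CXCL8, CXCL9 and CXCL10 among the ligands. CCL4 was higher. The counts also hold CCL17 and XCR1, which reached 1 FPKM in Empty-BAL only, and CCL26, which did so in hiHep-BAL-Day8 only. Without these members 1 was higher and 17 were lower. The 17 still hold CCR2 and CCR7, which needed Empty-BAL to pass the filter. The call of CCL26 was also lost without Empty-BAL replicate 1 or hiHep-BAL-Day8 replicate 1. CCR10 lost its call without Control replicate 1 or 3, any 1 No-BAL or Empty-BAL library or hiHep-BAL-Day8 replicate 2, and CXCR4 without Control replicate 1 or 2, Empty-BAL replicate 1 or either hiHep-BAL-Day8 library. CCR2 lost it without Empty-BAL replicate 1 or hiHep-BAL-Day8 replicate 2, CCR7 without hiHep-BAL-Day8 replicate 2, and CXCL2 without either hiHep-BAL-Day8 library. The count lower was 11 without hiHep-BAL-Day8 replicate 2, and the count higher 4 without Empty-BAL replicate 2. In the same comparison 6 of 11 macrophage, 7 of 9 T and NK cell and 5 of 5 neutrophil markers were lower and 6 of 8 hepatocyte markers higher, and their part was not tested. All neutrophil markers tested but ITGAM were under 1 FPKM in both hiHep-BAL-Day8 libraries, so passing the filter already set that group apart. Comparisons that name the same group share its libraries and are not independent of each other.

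**Figure D4:**
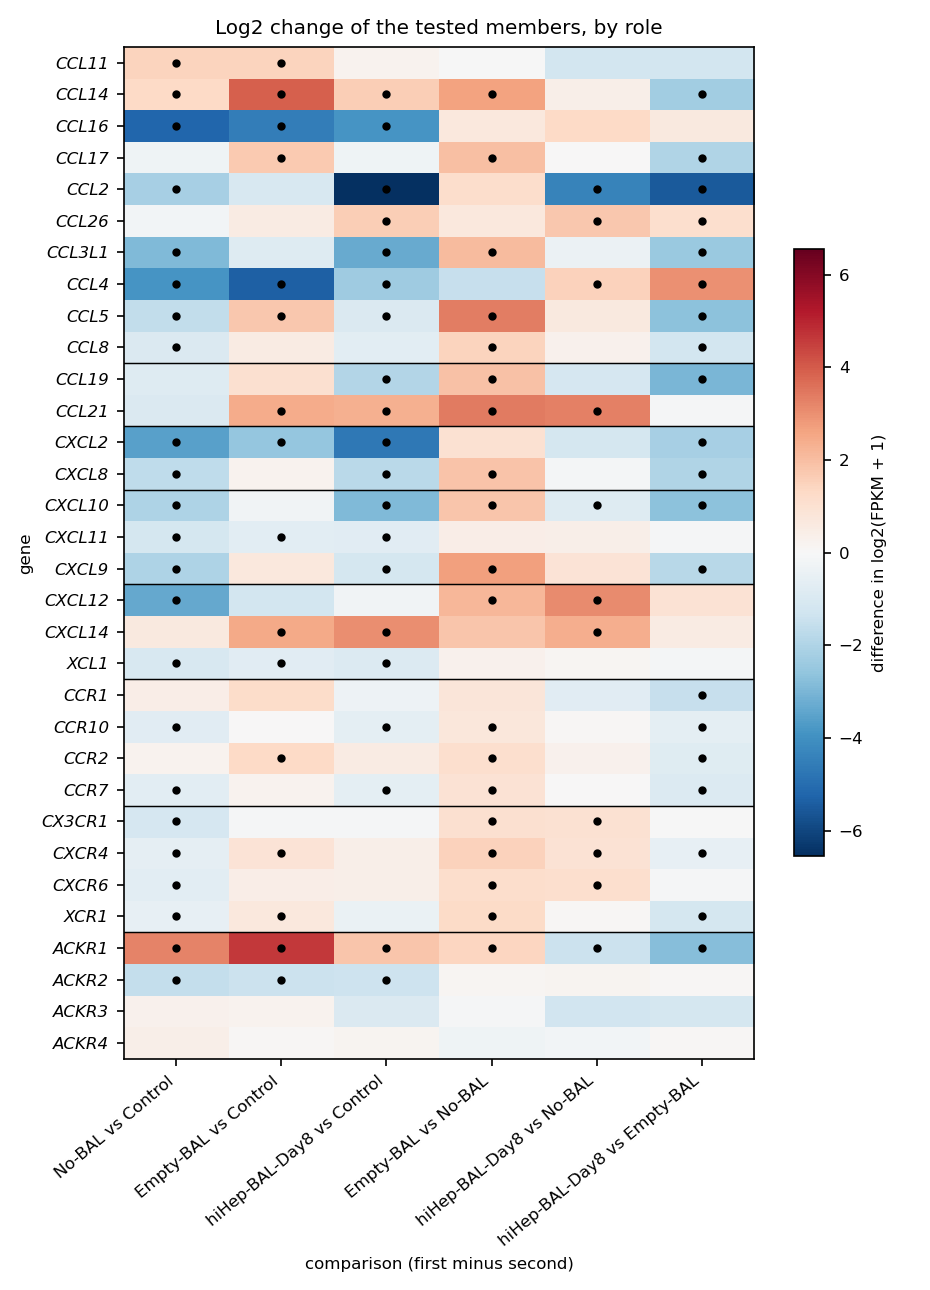
Difference in log2(FPKM + 1) of 32 of the 33 tested members (rows, grouped by role) in the 6 comparisons (columns, first group minus second), with a dot where limma's adjusted p was under 0.05. In the column of Empty-BAL against No-BAL the 19 dots all mark higher values, and in that of No-BAL against Control 20 of 23 mark lower values.

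hiHep-BAL-Day4 is a single library without a replicate check, and its members were compared by a 2-fold difference in log2(FPKM + 1) without a test. Against Control 4 members were at least 2-fold higher and 9 lower (8.19% and 11.2% of all genes), and against Empty-BAL 5 higher and 17 lower (16.5% and 13.4%). Against No-BAL 10 were higher and 1, CCL19, lower (7.6% and 7.56%), and against hiHep-BAL-Day8 6 were higher and 4 lower (12.3% and 11.1%). The library stood apart by CCL11 (4.82 above Control and 4.58 above hiHep-BAL-Day8 on the log2 scale) and by CXCL10 (2.87 above No-BAL and 3.72 above hiHep-BAL-Day8). CCL2 was 3.68 higher on day 4 than on day 8, and CCL21 and CXCL12 were 3.16 and 1.92 lower (differences of -3.16 and -1.92).

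Other genes of the pathway came from 3 lists. Of 22 genes that induce chemokines or regulate them through NF-kB and interferon signals 16 were tested, and 10 fell and 2 rose in No-BAL against Control (median -1.32), where 24.2% of all genes fell and 25.2% rose. The largest falls were those of TNFAIP3 and NFKBIA, which both curb NF-kB, and of the transcription factor IRF1. TNFAIP3 was at 49.2, 51.5 and 49.5 FPKM in Control, 1.59 and 2.57 in No-BAL, 6.6 and 2.78 in Empty-BAL, 3.38 in hiHep-BAL-Day4, and 3.29 and 3.06 in hiHep-BAL-Day8. IRF1 was at 91.3, 97 and 84.4 FPKM in Control, 6.04 and 8.38 in No-BAL, 36.2 and 21.7 in Empty-BAL, 10.8 in hiHep-BAL-Day4, and 6.48 and 6.89 in hiHep-BAL-Day8. Like CXCL10, IRF1 was higher in Empty-BAL than in No-BAL (1.84 ± 0.26, limma adjusted p = 0.0041) and lower in hiHep-BAL-Day8 than in Empty-BAL (-1.92 ± 0.26, adjusted p = 0.0012). In Empty-BAL and hiHep-BAL-Day8 against Control 9 and 13 of the 16 fell and 4 and 1 rose, where 29.3% and 17.1% of all genes fell and 24.4% and 15.1% rose. TNF, the classical inducer, was listed at no more than 1.29 FPKM in any library.

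Of 20 genes of receptor signalling and desensitisation 16 were tested. In Empty-BAL 11 were higher and 1 lower than in Control and 10 higher and 0 lower than in No-BAL (medians 1.20 and 1.68), and in hiHep-BAL-Day8 7 were lower than in Empty-BAL and 0 higher. Of all genes, 24.4% were higher and 29.3% lower in the comparison of Empty-BAL with Control, 12.6% and 21.4% in that with No-BAL, and 22.6% and 17.6% in that of hiHep-BAL-Day8 with Empty-BAL. ARRB2, an arrestin that ends receptor signals, and RAC2, a GTPase of migrating white blood cells, were among those higher in Empty-BAL. RGS16, which shortens G protein signals, went the other way and was at 185, 199 and 182 FPKM in Control against 2.71 to 17.5 in the failing livers. Of 12 genes of ligand processing and presentation 9 were tested. DPP4, the peptidase that clips the amino end of CXCL10, CXCL12 and other chemokines, was at 77.2, 75.3 and 79.2 FPKM in Control, 2.86 and 3.22 in No-BAL, 7.61 and 6.53 in Empty-BAL, 30.3 in hiHep-BAL-Day4, and 81.7 and 81.2 in hiHep-BAL-Day8. DPP4 fell in No-BAL against Control (-4.28 ± 0.14, limma adjusted p = 2.6e-06) and was 4.35 ± 0.16 higher in hiHep-BAL-Day8 than in No-BAL (adjusted p = 9e-06). Its level and that of CXCL12 were both lowest in No-BAL and near Control on day 8. That of CXCL10 was not, at 3.39 and 2.33 FPKM on day 8 against 26.1 to 29.4 in Control. A link between DPP4 and the RNA of either ligand was not tested.

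The 11 members that were not tested were AMCF-II, CCL1, CCL22, CCL27, CCL28, CCR4, CCR6, CCR8, CCR9, CXCR3 and CXCR5. Their highest values were 1.71 FPKM for CCL22 in Control replicate 1, which the other Control libraries did not share, and 1.15 FPKM for CCL28, a mucosal chemokine, in Empty-BAL replicate 2. CCL1 and CCL27 were above 0 in Empty-BAL libraries only. The lymphocyte receptors CCR4, CCR6, CCR8, CCR9 and CXCR5 stayed at or below 0.351 FPKM in all 10 libraries.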

How the data were processed

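The authors deposited 1 table of FPKM for 31905 genes in 10 libraries; the unit follows from the values and from Cufflinks in the submitters' processing notes, since the file header names none. The tools in those notes are HISAT2, Cufflinks and HTSeq, with no order. Sscrofa11.1 is given beside a mouse build that played no role below. Per the labels' protocols, liver RNA was made into paired-end libraries by a TruSeq kit. No source used here gives the strandedness. FPKM are relative to each library's total, so a rise of abundant genes lowers the others. Among low values no common ratio between libraries held for more than 1.73% of genes, so whole fragments were not recovered and no counting interval is given.

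Members were matched by the deposited symbol. Of the 44, 41 carry the same symbol in the reference list by identifier, and positions are those of RefSeq on Sscrofa11.1 by symbol. Beside the overlaps named above, ACKR2, ACKR4, CCL17, CCL28, CCR9, CX3CR1, CXCR5 and CXCR6 each overlap another RefSeq gene, so their reads may also be shared. The 12180 genes that reached 1 FPKM in 2 or more libraries were fitted as log2(FPKM + 1), pseudocount 1, in 1 limma model (3.58.1, R 4.3.3, trended variance) over all 10 libraries with a mean per group. The residual degrees of freedom were 5, beside a prior of 2.73. Tests were two-sided with Benjamini-Hochberg adjustment per comparison, and the code was tested on simulated data. Library values were given for members called with a change of at least 1, or with a group mean of at least 10 FPKM, and for some others. Up to 3 called genes of a pathway list could be named per comparison. The members and the gene lists were chosen with earlier results of these data known. Alternatives were a pseudocount of 0.1, no filter, a filter of 5 FPKM, upper-quartile scaling, Control and hiHep-BAL-Day8 counted once, each library left out, and replicate blocks over 7 and 9 libraries. Results of 1 tested member are not reported here, though it counts among the members. Plots were drawn with matplotlib 3.10.9.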

Additional observations from a re-analysis of the deposited data

How the results depend on the processing

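No called change of a member reversed under any alternative run. The settings below give numbers of members called. With Control and hiHep-BAL-Day8 each counted once, 1 member was higher and 0 lower in No-BAL against Control, 2 and 1 in Empty-BAL against Control, 0 and 0 in hiHep-BAL-Day8 against Control, 0 higher in Empty-BAL against No-BAL, 1 and 0 in hiHep-BAL-Day8 against No-BAL, and 0 and 0 in hiHep-BAL-Day8 against Empty-BAL. The smallest adjusted p of a member in the comparisons with no call was 0.079 to 0.12 (limma), and 10, 21 and 16 members had an unadjusted p under 0.05. That setting leaves 2 residual degrees of freedom. It also cut the calls over all genes in every comparison, so the loss is not particular to the members. With a filter of 5 FPKM fewer members were tested, and 10 were lower in No-BAL against Control, 7 higher and 3 lower in Empty-BAL against Control, 9 lower in hiHep-BAL-Day8 against Control, 10 higher in Empty-BAL against No-BAL, 5 higher in hiHep-BAL-Day8 against No-BAL, and 1 higher and 10 lower in hiHep-BAL-Day8 against Empty-BAL. In the last comparison 1 was higher with a pseudocount of 0.1 and 1 with no filter.

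Leaving out each library in turn gave, for No-BAL against Control, 1 to 3 higher and 15 to 21 lower; for Empty-BAL against Control 9 to 13 and 5 to 8; for hiHep-BAL-Day8 against Control 2 to 8 and 6 to 18; for Empty-BAL against No-BAL 15 to 24 and 0 to 1; for hiHep-BAL-Day8 against No-BAL 3 to 10 and 1 to 4; and for hiHep-BAL-Day8 against Empty-BAL 1 to 4 and 11 to 19. A group left with 1 library was assumed to vary like the others. The number of calls over all genes also moved with the library left out.

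Replicate numbers were not treated as pairs, since same-numbered deviations correlated at 0.137 between No-BAL and Empty-BAL but at -0.049 to 0.01 with Control. The replicate block, over the 7 libraries of Control, No-BAL and Empty-BAL, gave 7 higher members in Empty-BAL against No-BAL, and 20 without the block over the same libraries. Over all genes 407 were called in that comparison with the block and 2749 without it. A replicate block over the 9 libraries of these groups and hiHep-BAL-Day8, chosen after seeing the data and with the day 8 numbers from the column names, gave 1 higher member in No-BAL against Control and 1 in hiHep-BAL-Day8 against Empty-BAL. It ended 17 of the 112 calls, and the same 9 libraries without the block ended 0. Over all genes 4388 and 3793 were called in these 2 comparisons with the block, and 6022 and 4895 without it. Upper-quartile scaling moved the median log2 change of all genes from -0.025 to 0.152 in Empty-BAL against Control, -0.017 to 0.148 in hiHep-BAL-Day8 against Control, -0.144 to 0.054 in Empty-BAL against No-BAL and -0.032 to 0.153 in hiHep-BAL-Day8 against No-BAL. The share of all called genes that were higher went from 45.4% to 57.0%, 46.9% to 62.0%, 37.0% to 63.4% and 47.5% to 60.1%.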

Other observations

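A gene without a symbol in the deposited table carries the identifier of CCL25, a chemokine of the gut and thymus that acts on CCR9. It was at 1.67, 0.900 and 0.981 FPKM in Control, 0.810 and 1.81 in No-BAL, 2.09 and 1.08 in Empty-BAL, 0.932 in hiHep-BAL-Day4, and 0.856 and 0.877 in hiHep-BAL-Day8. PPBP, a platelet chemokine outside the naming rule, was listed at 0 in all 3 Control libraries and was at 0.306 and 0.586 FPKM in No-BAL, 17.4 and 2.51 in Empty-BAL, 1.72 in hiHep-BAL-Day4, and 0.13 and 0.407 in hiHep-BAL-Day8. CCRL2, a receptor-like protein that presents the attractant chemerin, was at 1.13, 1.34 and 0.568 FPKM in Control, 6.91 and 4.95 in Empty-BAL, and 0.348 and 1.06 in hiHep-BAL-Day8. In both genes Empty-BAL held the highest libraries. CCRL2 was lower in hiHep-BAL-Day8 than in Empty-BAL (limma adjusted p = 0.0027). PPBP would not have passed the filter without Empty-BAL, so its difference is given as levels, without a test.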
